A study of Mus musculus with 41 samples.

Results

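The 4 TEAD transcription factor genes (Tead1, Tead2, Tead3, and Tead4) and 6 target genes of the coactivator YAP (Ccn1, Ccn2, Ankrd1, Axl, Amotl2, and Ajuba) were followed through the RNA counts of mouse mesothelioma cell lines and tumors. The genes were chosen by name, and all 10 were found among the 27197 genes counted. RNA had been sequenced from 3 BNC lines (JB81, JB91, and JB97), 3 NC lines (JB84, JB87, and JB93), and 9 tumors, and low-coverage DNA profiles existed for 14 tumors. BNC lines are labelled Bap1-/-;Nf2-/-;Cdkn2ab-/- and NC lines Nf2-/-;Cdkn2ab-/-, so every group lacked Nf2 and Cdkn2ab, and the line comparison asks what differs where Bap1 is lost in addition. By the study's methods the alleles were deleted by an adenovirus that carries Cre under the CMV promoter, injected into the pleural space of mice of mixed FVB, Bl6, and 129Ola background, and the Cdkn2ab allele lacks Ink4a and Ink4b in the germline with only p19Arf conditional. The lines are the cells that attached and grew out of chopped tumor pieces, whereas the tumors were whole tissue. The labels give 5 BNC and 4 NC tumors, but the tumor columns do not show which is which, and the tumors were therefore treated as 1 group and named by their codes (B1, B2, B13, B14, B19, B27, B28, B45, and 1 uncoded tumor). Nothing in the labels says that lines of a group came from separate mice, so the p-values measure only the spread between these libraries, which may be technical in part.

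The Hippo pathway is a kinase cascade in which the kinases MST1 and MST2 activate LATS1 and LATS2, and the LATS kinases phosphorylate YAP and its paralog TAZ and hold them outside the nucleus. Unphosphorylated YAP and TAZ enter the nucleus and bind DNA through TEAD factors, which recognize a GGAATG core. Merlin, the product of Nf2, acts upstream of the LATS kinases, and loss of NF2 is a recurrent lesion of human mesothelioma. Several YAP targets feed back on the pathway: AMOTL2 retains YAP in the cytoplasm and AJUBA binds and restrains the LATS kinases.

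The promoters of the members are shown because the TEAD core is the DNA element these genes share in textbook accounts. The 250 bases upstream of RefSeq transcript starts on GRCm38.p6 were searched on both strands for GGAATG, which reads CATTCC from the other strand. Windows existed for 7 of the 10 members (9 windows), those of Tead2, Tead3, Ccn1, Ankrd1, Axl, Amotl2, and Ajuba. The core was present in all 5 target genes with a window and in 7 of the 9 windows, against 12.6% of 32841 mouse windows of the same length. Tead3 held it in its windows at 176 and at 117 and 108 bases before the start, and the Tead2 window held none. The AP-1 site TGANTCA, where N is any base and whose first 2 letters can be the last 2 of the TEAD core, was in 6.75% of all windows and in 0 of the members. A match is only a description of letters, not a binding site. The sequences below run 5′ to 3′ on the strand of the gene, with the TEAD core in capitals. The whole windows are shown for Ccn1 (chr3:145649986-145650235, minus strand, core 97 bases before the start), Axl (chr7:25788734-25788983, minus strand, 227 bases), and Ajuba (chr14:54577662-54577911, minus strand, 180 and 158 bases).
Ccn1: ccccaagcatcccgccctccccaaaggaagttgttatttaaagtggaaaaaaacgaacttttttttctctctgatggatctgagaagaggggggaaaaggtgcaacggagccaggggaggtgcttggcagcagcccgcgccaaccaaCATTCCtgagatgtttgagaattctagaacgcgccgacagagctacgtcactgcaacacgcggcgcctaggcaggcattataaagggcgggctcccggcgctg
Axl: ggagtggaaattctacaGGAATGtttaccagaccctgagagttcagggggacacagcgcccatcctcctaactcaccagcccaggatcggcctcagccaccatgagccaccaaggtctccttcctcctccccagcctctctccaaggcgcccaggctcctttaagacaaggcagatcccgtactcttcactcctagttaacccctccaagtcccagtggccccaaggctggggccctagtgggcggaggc
Ajuba: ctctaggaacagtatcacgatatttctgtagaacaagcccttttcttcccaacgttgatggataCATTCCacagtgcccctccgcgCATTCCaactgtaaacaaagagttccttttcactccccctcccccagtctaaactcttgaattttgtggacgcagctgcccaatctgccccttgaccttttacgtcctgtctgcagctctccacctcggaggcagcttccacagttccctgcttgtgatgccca
For Ankrd1 (chr19:36120039-36120064 and chr19:36119952-36119977, minus strand, 204 and 117 bases before the start) and Amotl2 (chr9:102717729-102717754, plus strand, 59 bases), only the core with 10 bases on each side is shown, since their windows overlap annotated exons.
Ankrd1 upstream core: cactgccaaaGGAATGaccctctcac
Ankrd1 downstream core: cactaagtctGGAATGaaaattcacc
Amotl2: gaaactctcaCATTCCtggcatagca

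Libraries held 8158740 (B1) to 23936922 (JB81) counted reads. The lowest count of any member in any library was 26 reads (Tead2 in B1), so no member was near the floor of 3 counts, which covers counting error only. Levels are given as CPM, read counts relative to the library's total (counts per 1000000 reads) after TMM scaling, and the scale was set once on the 6 lines and once on all 15 libraries, so the levels of a line differ slightly between the comparisons. Among the lines, JB81 and JB91 were nearly alike, as were JB84 and JB93: their counts differed by a chi-square of 14.3 and 20.8 per gene, above sampling noise, against 107 to 435 in the 13 other pairs. Over the 10 members these pairs differed by at most 0.11 and 0.26 on the log2 scale, whereas the closest other pair, JB97 and JB87, differed by up to 1.05. Each line was fitted as its own library, and values with the close pairs summed, which leaves 2 libraries a group, are given where they end a call or a threshold. No member and no list gene named for the lines had an adjusted p under 0.05 by edgeR with the pairs summed. In that fit 0 of the 12859 genes tested did, so it does not set these genes apart from others. DESeq2 on the summed pairs called 585 of 20589 genes at an adjusted p under 0.01 and more than 2-fold. These held 0 members, and of the lists below 1 TEAD cofactor, 1 YAP and TAZ target, 1 CCN gene, 2 TAM genes, and 0 Hippo or AP-1 genes. Of the deleted genes, Bap1 was at 38 to 44.1 CPM in the BNC and 60.6 to 64.2 CPM in the NC lines, Cdkn2a was under 1 CPM in all lines, and Nf2 gave 88.1 to 123 CPM in these Nf2-/- lines; counts per gene do not separate deleted from retained exons. Labels of mesothelioma were checked against mesothelial markers: the 8 markers summed to 2152 to 2972 CPM in the NC lines and to 129, 129, and 677 CPM in JB81, JB91, and JB97, in which Wt1 was present but Msln was at 0.21 and 0.421 CPM in JB81 and JB91. The sum of the fibroblast markers showed the opposite order, with 7620 to 14238 CPM in BNC lines and 1145 to 5855 CPM in NC lines. It was mostly Col1a1 and Col1a2, at 5847 and 7505 CPM in JB81. Dcn was at 2.4 and 2.53 CPM in JB81 and JB91, below the 5.53 to 20.9 CPM of the NC lines, and at 50.2 CPM in JB97. Pdgfra overlapped between the groups, and Lum and Dpt were under 1 CPM in all lines. The part of these marker differences in the results on the lines was not tested. In B1 and B13, 38.5% and 10.8% of reads came from Gm42418 and Lars2, against 0.416% to 2.9% in the other libraries, and the TMM factor of B1 was 0.427 against 0.8562 to 1.245 in the other libraries.

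In the line comparison, none of the 10 members passed the call of an adjusted p under 0.01 and more than 2-fold, nor an adjusted p under 0.05, with edgeR's quasi-likelihood test and Benjamini-Hochberg adjustment over 12376 genes. The background was 1.1% of genes called and 14.2% under the second threshold. At an unadjusted p under 0.05 there were 3 of 10 members, Tead2, Tead4, and Amotl2, against 4408 of all 12376 genes, so this is no excess. DESeq2 called 1, Amotl2, with 9.88% of its genes called. The groups did not overlap for 4 of 10 members, near the 41.5% of all genes tested (20.1% with BNC above and 21.4% with BNC below). Much of the spread lay within the groups: in 5 of the 6 targets (Ccn1, Ccn2, Ankrd1, Axl, and Ajuba), JB97 was the highest BNC line and JB87 the highest NC line.

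Tead1 (chr7:112679318-112906807, plus strand), the TEAD gene with the most reads here, was almost level across the lines. It measured 530, 510, and 539 CPM in the BNC lines and 558, 575, and 547 CPM in the NC lines. The BNC values all lay just below the NC values, with means of 526 ± 14.4 and 560 ± 14.2 CPM (SD, n = 3). This gave a log2 fold change of -0.09 ± 0.12 (SE) with an adjusted p of 0.621.

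Tead4 (chr6:128224288-128300823, minus strand) had the largest difference of the family. It was at 11.5, 11, and 27.5 CPM in JB81, JB91, and JB97 and at 44.1, 29, and 47.6 CPM in JB84, JB87, and JB93. All BNC lines lay below all NC lines, but JB97 and JB87 nearly met. On the log2 scale the difference was -1.27 ± 0.42, with an adjusted p of 0.0915 by edgeR and of 0.0284 by DESeq2. Without JB97, which leaves the close pair JB81 and JB91 as the BNC group and 3305 of 12991 genes with an adjusted p under 0.05, it was -1.83 with an adjusted p of 0.0128. With the close pairs summed it was -0.96 with an adjusted p of 0.584.

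Tead2 (chr7:45215753-45233644, plus strand) went the other way, with 32.5, 35, and 53.9 CPM in the BNC lines and 25.4, 26.1, and 29.2 CPM in the NC lines. The groups did not overlap, and the highest value was again that of JB97. It differed by 0.59 ± 0.23 on the log2 scale, with an adjusted p of 0.127. Tead3 (chr17:28331671-28350817, minus strand) was at 31.6, 33.8, and 32.9 CPM in the BNC lines, a narrow range, against 11.7, 31.7, and 13.9 CPM in the NC lines. JB87 sat among the BNC lines, while JB84 and JB93 were lower. The log2 fold change was 0.78 ± 0.39 with an adjusted p of 0.205. Without JB87, which leaves the close pair JB84 and JB93 as the NC group, it became 1.38 with an adjusted p of 0.0019. That fit called 19.7% of all genes. With the close pairs summed, the log2 fold change was 0.56 with an adjusted p of 0.719.

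**Figure D1:**
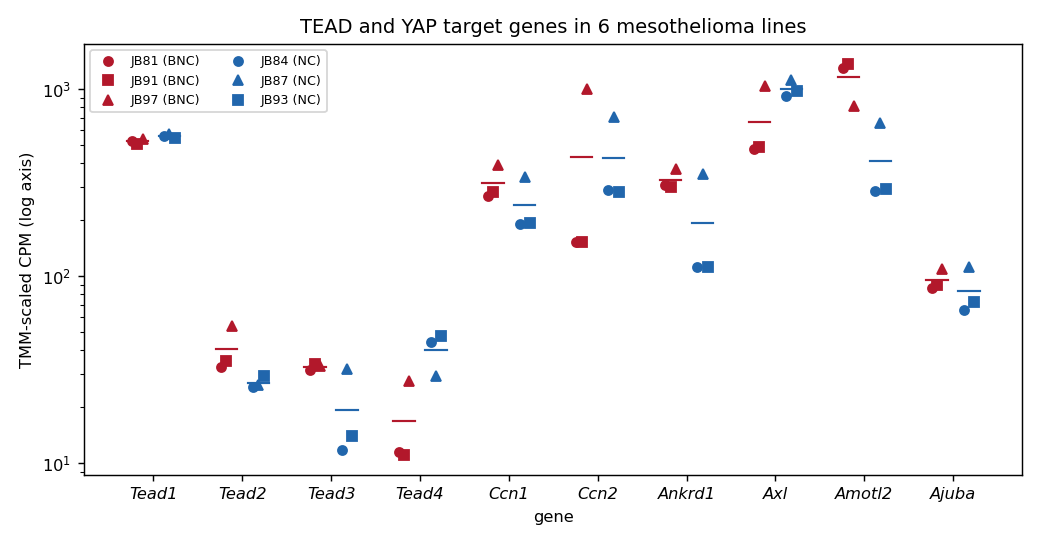
Levels of the 10 members in the 6 lines, in CPM on a log axis, with 1 point for each line and a bar at the mean of each group (n = 3). The BNC and NC points are apart for Tead1, Tead2, Tead4, and Amotl2 and overlap for the other 6 members, and JB97 and JB87 lie away from the other lines of their groups in Ccn2, where JB97 is at 1000 and JB87 at 710 CPM.

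Amotl2 (chr9:102716672-102733418, plus strand) showed the largest difference among the YAP targets. Its levels were 1303, 1368, and 813 CPM in JB81, JB91, and JB97 and 285, 658, and 292 CPM in JB84, JB87, and JB93. The lowest BNC line, JB97, was still above the highest NC line, JB87. The estimate was 2.82-fold higher in the BNC lines, a log2 fold change of 1.50 ± 0.41, with an unadjusted p of 0.0106 and an adjusted p of 0.0606 by edgeR. DESeq2 gave 1.52 with an adjusted p of 0.00306. With the close pairs summed, the log2 fold change was 1.19 with an adjusted p of 0.495. Library names begin with a number whose meaning the sources used here do not give, and within the 2 numbers that lines of both groups share the log2 ratio was 1.90 and 1.47, each resting on 1 line of a group.

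Ankrd1 (chr19:36111961-36120099, minus strand), which encodes a nuclear ankyrin repeat protein of stressed muscle, was at 306, 301, and 375 CPM in the BNC lines against 112, 350, and 112 CPM in the NC lines. Only JB87 reached the BNC range. The estimate was 0.78 ± 0.49 (log2) with an adjusted p of 0.289, and without JB87 it was 1.57 with an adjusted p of 0.00165. Without JB87, 3 members were called, Tead3, Ankrd1, and Amotl2, but the NC group was then the close pair alone, and 19.7% of all genes were called.

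Ccn1 and Ccn2 encode the secreted matricellular proteins CYR61 and CTGF, which are the usual readouts of YAP activity. Ccn2 (chr10:24595442-24598683, plus strand) was the most uneven member, with 152, 152, and 1000 CPM in JB81, JB91, and JB97 and 290, 710, and 282 CPM in JB84, JB87, and JB93. The means were alike, 435 ± 490 and 427 ± 245 CPM (SD, n = 3), and each group held 1 line far above the others. The log2 fold change of 0.02 ± 0.85 (adjusted p = 0.987) became -1.49 without JB97 and 0.63 without JB87, and within the shared name prefixes it was 1.03 and -1.72. An opposite-strand gene model, Gm15270, shares 23.2% of the exon bases of Ccn2, and without a stated strand setting their reads cannot be told apart. Ccn1 (chr3:145646976-145649981, minus strand) was at 269, 283, and 394 CPM against 190, 340, and 193 CPM, and JB97 and JB87 were again the highest of their groups. Its log2 fold change was 0.39 ± 0.29 with an adjusted p of 0.369.

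Axl (chr7:25757273-25788705, minus strand), a receptor tyrosine kinase, was at 480, 487, and 1035 CPM in the BNC lines against 916, 1117, and 973 CPM in the NC lines. JB97 lay within the NC range, and only the close pair JB81 and JB91 lay below it. The estimate on the log2 scale was -0.59 ± 0.34 with an adjusted p of 0.259, -1.05 with an adjusted p of 0.0127 without JB97 (the close pair alone), and -0.45 with an adjusted p of 0.763 with the close pairs summed. Ajuba (chr14:54567472-54577558, minus strand) was at 86.4, 89.4, and 109 CPM against 65.9, 112, and 72.2 CPM, with overlapping groups, a log2 fold change of 0.19 ± 0.24, and an adjusted p of 0.593.

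Compared per length, Tead1 was the leading TEAD gene in every line. Dividing by the union of annotated exons (13570, 4788, 6714, and 3598 bp for Tead1 to Tead4), Tead1 stood at 35.9 to 39.6 CPM per kb and made up 62.5% to 72.6% of the 4 genes. The order below it differed between the lines. Tead4 was the second in the 3 NC lines, with 11.2, 7.54, and 12.2 CPM per kb in JB84, JB87, and JB93, and it was the lowest of the 4 in JB81 and JB91, with 3.05 and 2.93 CPM per kb. Tead2 was the second in the 3 BNC lines, with 6.45, 6.97, and 11.1 CPM per kb. Tead2 was thus above Tead4 in each BNC line and below it in each NC line, although Tead4 itself was equal in JB97 and JB87 at 7.54 CPM per kb; the ranks were not tested. Tead3 was at 1.59 to 4.84 CPM per kb.

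**Figure D2:**
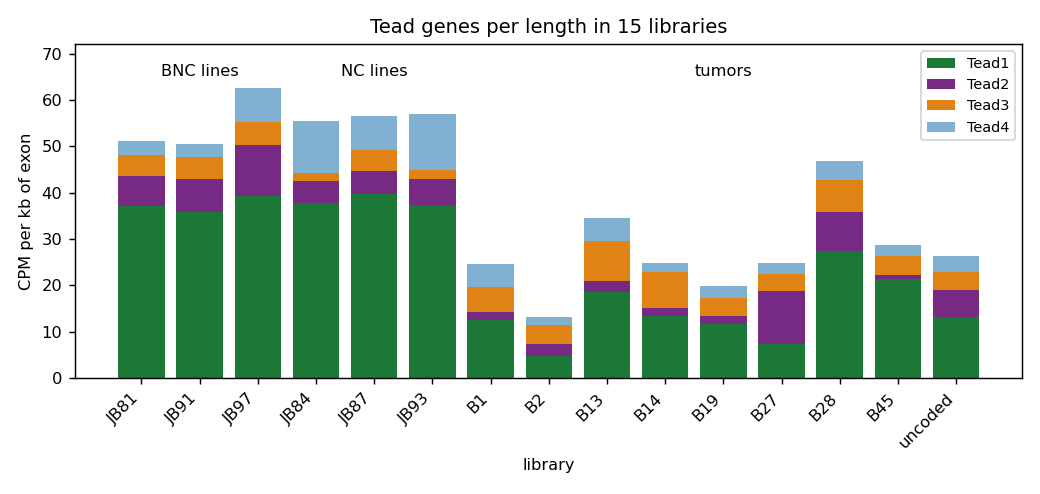
Levels of the 4 TEAD genes per exon length, in CPM per kb, stacked for each of the 15 libraries. Tead1 makes the largest part of every bar but that of tumor B27, in which Tead2 makes 46.2%, and the sum is 50.6 to 62.7 CPM per kb in the lines and 13.2 to 46.8 CPM per kb in the tumors.

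In the tumors, Tead1, Tead4, and Amotl2 were lower than in the lines, and Ajuba was lower at the weaker threshold. The comparison set 9 tumors against the mean of the BNC and NC lines, with 15675 genes tested. The call of an adjusted p under 0.01 and more than 2-fold was met by 39.7% of all genes (28.2% higher and 11.5% lower), and 61.2% had an adjusted p under 0.05. Among the members, 3 of 10 were called, all lower, and 4 of 10 had an adjusted p under 0.05, so neither share exceeded the background in total. The direction of these calls was the less common one. Of the 10 members, 9 had a log2 fold change below 0, with a median of -0.74 against 0.38 over all genes tested. For Ccn1 (-0.11 ± 0.48), Ccn2 (-0.17 ± 0.47), and Ankrd1 (-0.06 ± 0.61), however, the estimate was smaller than its SE, and 4 members changed sign in an alternative fit. All tumors carried 1 name prefix that no line had, so whatever the prefix marks and the difference between tumor and line cannot be told apart. In bulk tissue, fewer cells of a type and less RNA per cell cannot be told apart either.

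Tead1 was at 487 to 538 CPM in the lines and at 64.2 (B2), 177, and 371 CPM (B28) as the lowest, median, and highest of the tumors. All 9 tumors lay below every line, as for 9.15% of all genes. The difference was 2.58-fold, a log2 fold change of -1.37 ± 0.31 with an adjusted p of 0.00183. It was nearly the same against the BNC lines (-1.33) and the NC lines (-1.40).

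Tead4 was at 10.5 to 44 CPM in the lines and at 6.67, 9.15, and 18 CPM in the lowest, median, and highest tumor. The tumors overlapped only the low values of JB81 and JB91. The log2 fold change was -1.12 ± 0.30 with an adjusted p of 0.00501, with -1.74 (adjusted p = 0.00155) against the NC lines alone and -0.50 (adjusted p = 0.27) against the BNC lines alone. With the close pairs summed it was -1.23 with an adjusted p of 0.0101, just short of a call.

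Tead2 was spread over a 12.7-fold range in the tumors, from 4.31 CPM in B45 over a median of 10.8 to 54.8 CPM in B27, against 23.3 to 53.2 CPM in the lines. B27, B28 (40.9 CPM), and the uncoded tumor (28.3 CPM) lay at line levels or above and the other 6 below. Tumors and lines differed by -0.67 ± 0.49 (log2) with an adjusted p of 0.253. Tead3 was the only member with a positive estimate, at 24.8, 27.9, and 58 CPM in the tumors against 10.7 to 32.5 CPM in the lines, a log2 fold change of 0.63 ± 0.28 with an adjusted p of 0.0612. Per length, Tead1 fell from 37.8 ± 1.4 CPM per kb in the lines (SD, n = 6) to 14.4 ± 6.98 CPM per kb in the tumors (SD, n = 9), and its part of the 4 genes was 29.4%, 53.9%, and 74.3% in the lowest, median, and highest tumor. Tead3 made 14.5% to 31.3% of the family in the tumors and 2.87% to 9.49% in the lines, with no overlap.

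**Figure D3:**
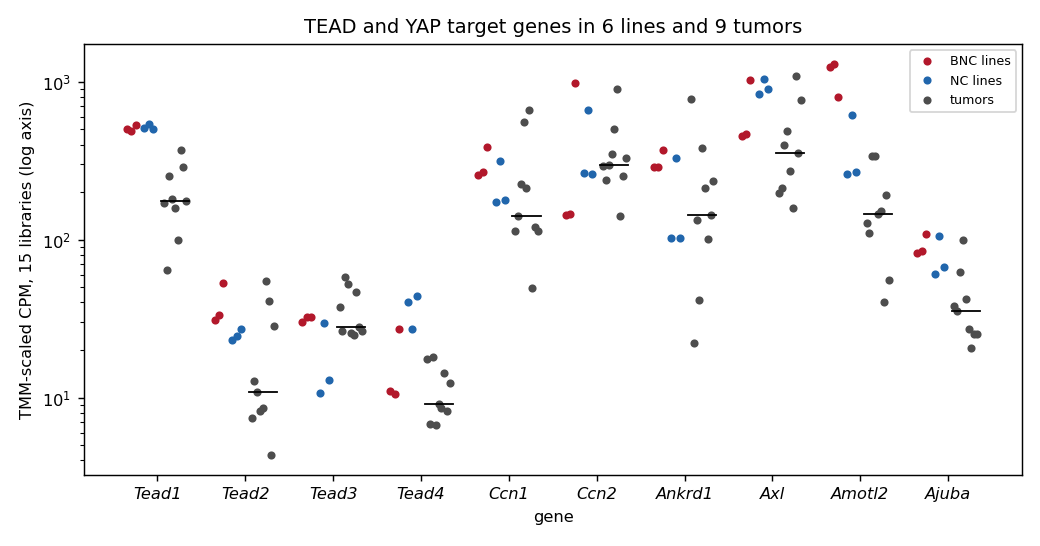
Levels of the 10 members in the 6 lines and 9 tumors, in CPM on a log axis, with 1 point for each library and a black line at the tumor median. All tumors lie below the lines for Tead1, whereas for Ccn1, Ccn2, and Ankrd1 the tumors extend across the range of the lines.

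Amotl2 was at 261 to 1305 CPM in the lines and at 40.5 (B28), 146, and 339 CPM (B13, with B14 at 338) in the tumors. In 7 of 9 tumors it was below the lowest line. Amotl2 changed by -1.96 ± 0.42 on the log2 scale, 3.89-fold lower, with an adjusted p of 0.0012. It was -2.72 against the BNC lines (adjusted p = 0.000504) and -1.21 against the NC lines (adjusted p = 0.0641). The difference between these line groups was itself not called in the line comparison (adjusted p = 0.0606). Ajuba was at 60.5 to 108 CPM in the lines and at 20.5 (B28), 35.2, and 99.6 CPM (B14) in the tumors, again with 7 of 9 below the lowest line. Its log2 fold change was -1.01 ± 0.32 with an adjusted p of 0.0131.

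The other 4 targets overlapped the lines, and none had an adjusted p under 0.05. Of the 9 tumors, 5 lay below the lowest line for Ccn1, 1 for Ccn2, 3 for Ankrd1, and 6 for Axl. Above the highest line there were 2 for Ccn1, 0 for Ccn2, 2 for Ankrd1, and 1 for Axl. Ccn1 was at 49.2 (B28), 142, and 661 CPM (B27, with B14 at 557) in the tumors and at 174 to 389 CPM in the lines, a log2 fold change of -0.11 ± 0.48 with an adjusted p of 0.851. Ccn2 was at 142 (B28), 297, and 900 CPM (B27) in the tumors and at 144 to 988 CPM in the lines, with -0.17 ± 0.47 and an adjusted p of 0.772. In both CCN genes B27 was the highest tumor and B28 the lowest.

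Ankrd1 was at 22.2 (B2), 143, and 778 CPM (B1) in the tumors and at 103 to 371 CPM in the lines, and the estimate of -0.06 ± 0.61 (log2) had an adjusted p of 0.942. B1 and B19, the 2 highest at 778 and 379 CPM (332 and 325 with library size alone), were among the 3 tumors with the most skeletal muscle marker RNA, whereas B45, the third of these, was at 143 CPM. Axl was at 159 (B27), 354, and 1084 CPM (B28, with the uncoded tumor at 765) in the tumors and at 456 to 1044 CPM in the lines, with -0.81 ± 0.42 and an adjusted p of 0.104. Its order was opposite to that of Ccn1 and Ccn2 at both ends, since B28 was the highest tumor for Axl and the lowest for the CCN genes.

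**Figure D4:**
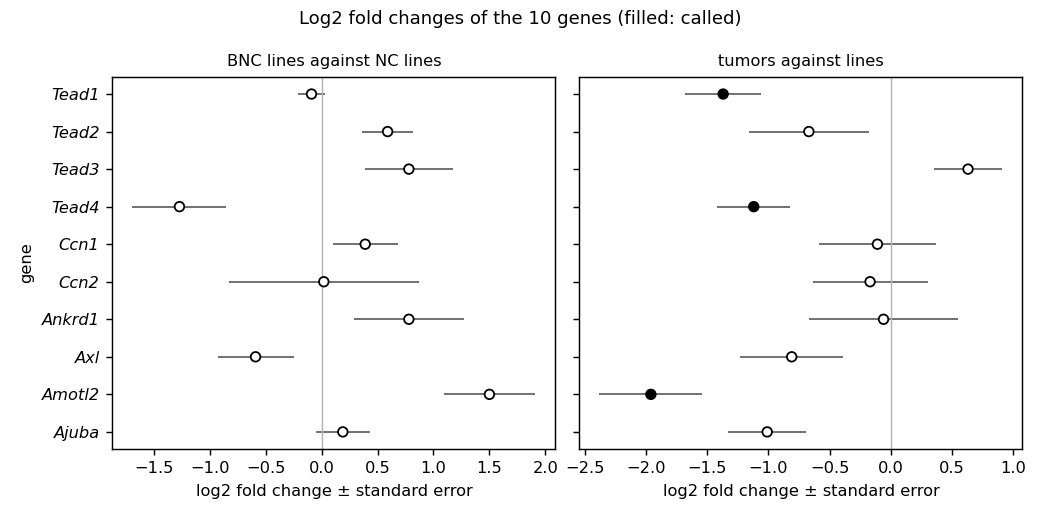
Log2 fold changes of the 10 members with SE, for BNC against NC lines and for tumors against lines, with filled points for called genes. No point is filled in the line comparison, and Tead1, Tead4, and Amotl2 are filled, all below 0, in the tumor comparison.

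Marker genes of other cell types differed between tumors and lines over the same samples. The 8 leukocyte markers summed to 850, 4505, and 8693 CPM in the lowest, median, and highest tumor and to 4.54 to 57 CPM in the lines, in all of which 4 of 8 (Ptprc, Adgre1, Cd3e, and Cd79a) were under 1 CPM. The 6 skeletal muscle markers summed to 202, 3246, and 48515 CPM in the tumors and 0.808 to 5.64 CPM in the lines (4 of 6 under 1 CPM), with 48515, 48158, and 47685 CPM in B19, B45, and B1. The 5 lung epithelium markers reached 45565 CPM in B2 and 2.66 to 97.1 CPM in the other tumors, against 0.674 to 1.06 CPM in the lines (4 of 5 under 1 CPM). The 6 endothelial markers were at 101 to 906 CPM in the tumors and 0.337 to 56.8 CPM in the lines (5 of 6 under 1 CPM), and the 8 cardiac muscle markers at 10.2 to 1025 CPM and 8.29 to 70.9 CPM (6 of 8 under 1 CPM). In B1, the highest for the cardiac sum, Tnnt2 was at 725 and Myl2 at 274 CPM, and Myh6, Myl7, and Nppa were at 0 CPM. The 4 adipocyte markers were at 6.83 to 2730 CPM in the tumors and 0.0421 to 3.46 CPM in the lines (3 of 4 under 1 CPM), the 6 fibroblast markers at 4944 to 20958 CPM and 1145 to 14238 CPM (2 of 6 under 1 CPM), and the 8 mesothelial markers at 793 to 4516 CPM and 129 to 2972 CPM. The part of these cells in the results on the members was not tested. Without B1, B2, B13, B19, and B45, the tumors with the most muscle, lung, or Gm42418 and Lars2 reads, the log2 fold changes were -1.29 for Tead1 (adjusted p = 0.0111), -1.23 for Tead4 (adjusted p = 0.0201), and -2.13 for Amotl2 (adjusted p = 0.018), against -1.37, -1.12, and -1.96 with all 9 tumors, and none of the 3 was called with the 4 tumors left.

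Of the partners of the TEAD factors, Yap1 was lower in the tumors, and Vgll3 was higher in the BNC lines at an adjusted p under 0.05 and lower in the tumors. Yap1 itself was at 159, 158, and 208 CPM in the BNC lines and 226, 195, and 219 CPM in the NC lines, a log2 fold change of -0.29 ± 0.17 with an adjusted p of 0.257. In the tumors it was at 66.3, 86.9, and 114 CPM against 150 to 207 CPM in the lines. Every tumor lay below every line, as for 9.15% of all genes. The log2 fold change was -1.03 ± 0.15 (adjusted p = 7.03e-05). It fell short of 2-fold by DESeq2 (-0.95), against the BNC lines (-0.90), and without the 5 tumors named above (-0.95). Wwtr1, which encodes TAZ, was level in the lines, with 140 to 151 CPM in BNC and 150 to 162 CPM in NC lines (log2 fold change -0.09 ± 0.12, adjusted p = 0.621).

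In the tumors Wwtr1 was at 77.1 to 113 CPM in 7 and at 201 and 254 CPM in the uncoded tumor and B28, the tumors in which Axl was highest. Its log2 fold change against the lines was -0.21 ± 0.28 with an adjusted p of 0.536. Vgll3, a vestigial-like cofactor that binds TEAD factors in place of YAP, was at 432, 413, and 318 CPM in the BNC lines and 104, 148, and 98.7 CPM in the NC lines. The groups were well apart, with a log2 fold change of 1.73 ± 0.22 and an adjusted p of 0.0128, which missed the stricter threshold and was 0.298 with the close pairs summed. In the tumors Vgll3 was at 4.13, 58.2, and 121 CPM against 91.3 to 411 CPM in the lines, a log2 fold change of -1.87 ± 0.51 (adjusted p = 0.00592), with an adjusted p of 0.201 against the NC lines alone and of 0.0556 without the 5 tumors. Vgll4, which competes with YAP for TEAD factors, was at 49.4, 54.3, and 51.8 against 37.6, 25, and 38.4 CPM (log2 fold change 0.62 ± 0.20, adjusted p = 0.0855). Of the 6 coactivators and cofactors, 4 were tested in the lines and 1 of them, Vgll3, passed an adjusted p of 0.05. At this threshold 14.2% of all genes passed.

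In the tumors 5 of these genes were tested, and 1 was called higher (Vgll2) and 2 lower (Yap1 and Vgll3), where 28.2% of all genes were called higher and 11.5% lower. The count was 1 with the close pairs summed, against either line group alone, without B1, B19, or JB97, or without the 5 tumors, and 0 with at least 10 counts in every library. Vgll2, known from skeletal muscle, was at 0 to 0.508 CPM in the lines and at 60, 68, and 39.9 CPM in B1, B19, and B45, the tumors with the highest skeletal muscle markers, and at 0.0992 to 2.14 CPM in the others. Its log2 fold change was 7.69 ± 1.80 with an adjusted p of 0.00208, and 3.93 without the 5 tumors named above.

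A signature of 22 YAP and TAZ targets, which holds 5 of the members, had 0 calls among 21 tested in the lines by edgeR. DESeq2 called 7 (9.88% of all its genes were called), and edgeR without JB87 called 8 (19.7% of all genes were called). By edgeR 3 had an adjusted p under 0.05, all higher in the BNC lines (Lats2, Asap1, and Igfbp3; 5.78% of all genes were higher and 8.45% lower at this threshold), with a median log2 fold change of 0.52 against -0.00 over all genes. Asap1, an Arf GTPase-activating protein, was at 441, 451, and 489 CPM in the BNC and 141, 211, and 152 CPM in the NC lines (log2 fold change 1.45 ± 0.19, adjusted p = 0.0132). Lats2, at once a kinase that inhibits YAP and a YAP target, was at 303, 311, and 233 CPM against 128, 148, and 123 CPM (1.08 ± 0.17, adjusted p = 0.0183). Neither kept an adjusted p under 0.05 with the close pairs summed (0.306 and 0.344), nor did Igfbp3 (0.366).

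In the tumors, 22 were tested, with 2 called higher (Igfbp3 and Nt5e) and 7 called lower (Myof, Amotl2, Lats2, Asap1, Crim1, Ptpn14, and Arhgef17) and a median of -0.44. These 9 of 22 are close to the 39.7% called among all genes, and 3 were called against the NC lines alone or without the 5 tumors named above. The Igfbp3 call was lost against the BNC lines (log2 fold change 1.86, adjusted p = 0.0962). Asap1 was at 32.4 to 127 CPM in the tumors and 129 to 483 CPM in the lines (-1.97 ± 0.29, adjusted p = 6.89e-05). It was below every line in all 9, as for 9.15% of all genes. Nt5e, the ecto-nucleotidase CD73, was at 0.042 to 0.808 CPM in the lines and 12.9 to 123 CPM in the tumors (7.63 ± 0.66, adjusted p = 5.34e-07).

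**Figure D5:**
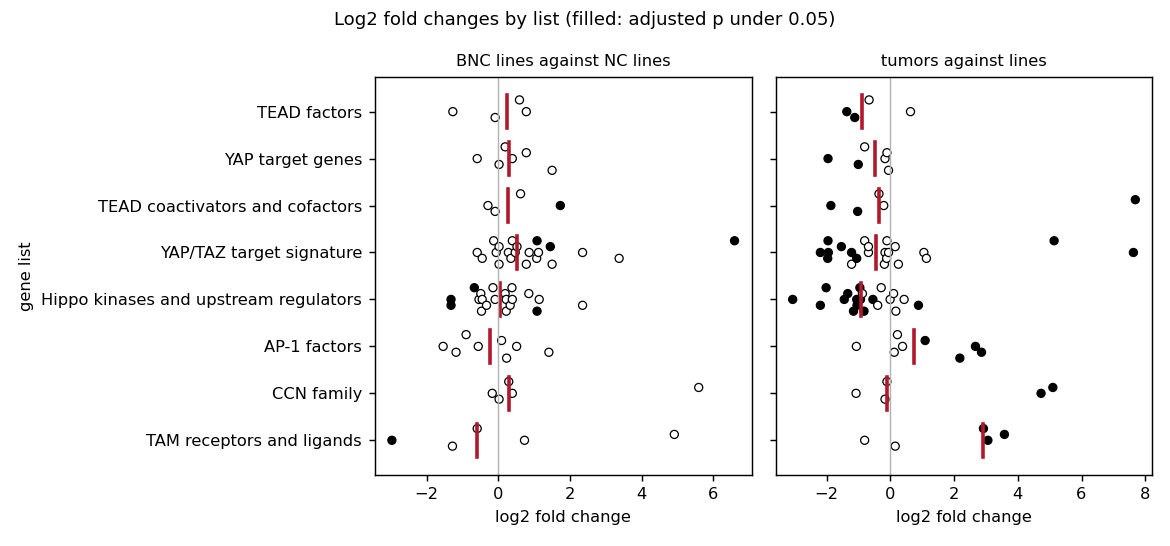
Log2 fold changes of the genes of each list in both comparisons, with 1 point for each gene tested, filled where the adjusted p was under 0.05, and a red line at the median of the list. The median of the Hippo regulators is -0.91 and that of the TAM genes 2.92 in the tumors, against 0.38 over all genes.

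Among 20 Hippo kinases and upstream regulators, 0 were called in the lines. At an adjusted p under 0.05 there were 1 higher in the BNC lines (Lats2) and 3 lower (Stk4, Taok3, and Amotl1). Of all genes, 5.78% were higher and 8.45% lower at this threshold. Taok3, a kinase that phosphorylates MST kinases, was at 15.6, 15.1, and 22.3 CPM in the BNC lines and 44.8, 43.6, and 43.8 CPM in the NC lines (log2 fold change -1.32 ± 0.20, adjusted p = 0.0161). Amotl1, the paralog of Amotl2, was at 226, 208, and 160 CPM against 589, 319, and 572 CPM (-1.32 ± 0.28, adjusted p = 0.036), the opposite order to that of Amotl2. With the close pairs summed these adjusted p-values were 0.318 and 0.374, and that of Stk4, 0.0497 with all lines, was 0.554. DESeq2 called 5 of the 20, where 9.88% of all its genes were called. In the tumors 7 of the 20 were called, all lower, where 11.5% of all genes were called lower. At an adjusted p under 0.05, 12 were lower and 1 higher (Wtip), where 22.2% of all genes were lower and 39% higher. The median log2 fold change of the list in the tumors was -0.91. With 1 library left out, 6 to 10 were called. Against the NC lines alone, Lats2 and Frmd6 were not called (adjusted p = 0.199 and 0.661). Without the 5 tumors named above, Lats1, Lats2, Ptpn14, and Frmd6 lost the call (adjusted p = 0.0123, 0.0382, 0.0117, and 0.0774), and Amotl1 gained it (-1.46, adjusted p = 0.00477). Lats2 and Ptpn14 are also in the signature of YAP and TAZ targets. Wwc2, a scaffold of the LATS kinases, was at 33.9 to 107 CPM in the tumors and 171 to 369 CPM in the lines (-2.02 ± 0.26, adjusted p = 2.38e-05). Taok1 was at 75.8 to 139 CPM and 193 to 309 CPM (-1.16 ± 0.17, adjusted p = 7.33e-05). Both were thus below every line in all 9 tumors, as for 9.15% of all genes.

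The AP-1 factors, which often occupy enhancers together with TEAD factors, had 0 of 8 with an adjusted p under 0.05 in the lines. The 2 with the smallest p, Fos (log2 fold change 1.41 ± 0.74, adjusted p = 0.222) and Fosb (-1.18 ± 0.63, adjusted p = 0.225), went opposite ways. In the tumors 4 of 8 were called, all higher (Fos, Fosb, Jun, and Junb), where 28.2% of all genes were called higher. The count was 1 with the close pairs summed, 1 against the NC lines, and 2 against the BNC lines or with library size alone. Jun was at 77.3 to 178 CPM in the tumors and 39.3 to 64.8 CPM in the lines (1.09 ± 0.21, adjusted p = 0.000502), and Junb at 57.6 to 615 CPM and 8.49 to 42.5 CPM (2.86 ± 0.57, adjusted p = 0.000665). The highest Junb was that of B27, the tumor with the highest Ccn1 and Ccn2.

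In the CCN family, 0 of 5 tested genes had an adjusted p under 0.05 in the lines. Ccn5, the family member without the carboxy-terminal domain, was at 10, 11.6, and 58.8 CPM in the BNC lines against 0.0678, 1.73, and 0 CPM in the NC lines, a log2 fold change of 5.59 ± 1.62 with an adjusted p of 0.0678. In the tumors Ccn3 and Ccn5 were called higher, where 28.2% of all genes were called higher, and Ccn1 and Ccn2 were not called. Ccn3 was at 23.7 to 145 CPM in the tumors and 1.03 to 3.54 CPM in the lines (5.10 ± 0.55, adjusted p = 4.15e-06), above every line in all 9 as for 16.3% of all genes, and Ccn5 was at 20.7 to 201 CPM and 0 to 58 CPM (4.73 ± 0.88, adjusted p = 0.000412). Against the NC lines Ccn5 differed by 7.54 (log2, adjusted p = 0.000911) and against the BNC lines by 1.92 (adjusted p = 0.113).

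Axl belongs to the TAM receptors, whose ligands are Gas6 and protein S (Pros1). The ligands took opposite orders in the lines. Gas6 was at 422, 451, and 268 CPM in the BNC lines and 1.49, 35.2, and 1.69 CPM in the NC lines (log2 fold change 4.91 ± 1.39, adjusted p = 0.0645). Pros1 was at 2.3, 1.9, and 4.17 CPM against 17.5, 31.5, and 16.6 CPM (-2.97 ± 0.44, adjusted p = 0.0165), the 1 gene of 5 with an adjusted p under 0.05, and its adjusted p was 0.293 with the close pairs summed. With all lines, 14.2% of all genes had an adjusted p under 0.05. In the tumors Mertk, Gas6, and Pros1 were called higher, where 28.2% of all genes were called higher, and Axl and Tyro3 were not called. For Gas6 the log2 fold change was 5.52 against the NC lines (adjusted p = 0.0027) and 0.61 against the BNC lines (adjusted p = 0.582), whose 265 to 430 CPM lay within the tumor range of 70 to 1497 CPM. Pros1 was at 35.3 to 157 CPM in the tumors and 1.81 to 29.5 CPM in the lines (3.58 ± 0.36, adjusted p = 2.27e-06), and Mertk at 10.8 to 59.9 CPM and 1.47 to 11.7 CPM (2.92 ± 0.49, adjusted p = 0.000177). Mertk is also a gene of macrophages. All 8 leukocyte markers, with Adgre1 and Cd68 among them, were called higher in the tumors, and the part of these cells in the Mertk result was not tested.

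Low-coverage DNA profiles of 14 tumors gave a log2 value for each 20-kb bin, and the median over the bins that overlap each member was taken. The medians over tumors lay between -0.07 and 0.02 for the 10 members, and the values of single tumors between -0.27 (Tead2 in B20, 2 bins) and 0.23 (Ccn2 in B23, 1 bin). Single bins varied with an SD of 0.11 to 0.17 in a tumor, so values resting on 1 or 2 bins are near that spread. Over the 13 bins of Tead1 the tumors lay between -0.10 and 0.04. The largest value over the bins within 500 kb of a member was 0.35 at Ankrd1 in B28 (51 bins). The RNA library coded B28 had an Ankrd1 level of 101 CPM, below the tumor median. DNA and RNA tables shared 5 tumor codes, but their columns were not matched to each other, and no test of DNA against RNA was made.

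Across the 9 tumors, the members most alike in log2(CPM + 1) were Ccn1 and Ccn2 (Pearson r = 0.82), Amotl2 and Ajuba (0.79), Ccn1 and Amotl2 (0.70), and Tead1 and Axl (0.70), and the most opposed pair was Ccn2 and Axl (-0.62). The values of a pair share library, depth, and tissue makeup, and these correlations are descriptions over 9 points. The gene most like each member over the tumors, among 7528 genes with at least 10 CPM in each, was Lig3 for Tead1 (0.98), Rbm4b for Tead2 (0.95), Tmem260 for Tead3 (0.93), Metrnl for Ccn1 (0.99), Agpat5 for Ccn2 (0.95), Mrps10 for Ankrd1 (0.97), Trim33 for Axl (0.99), Cyld for Amotl2 (0.97), and Ldlrad4 for Ajuba (0.97). Each of these is the highest of 7528 correlations over 9 points. High values are expected from that choice alone, so none of these genes is read as a partner of its member. Tead4 had a tumor median of 9.15 CPM and was left out. Over the 6 lines, the same pairs had correlations from -0.62 (Ccn2 and Agpat5) to 0.85 (Axl and Trim33).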

How the data were processed

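RNA counts of 6 cell lines and 9 tumors and DNA profiles of 14 tumors were analysed. The authors deposited the RNA data as raw counts of reads per gene, made from poly-A RNA by alignment to mm10 with TopHat2 2.0.12 and counting with HTSeq after removal of reads of low mapping quality; the annotation release and strand setting are not given in the sources used here. The authors' DNA table holds log2 values for bins of 20 kb from reads aligned with BWA and corrected for GC content and mappability. Placeholder values were masked, and the ratio to normal tissue could not be checked. Chromatin profiles were not used here.

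Gene symbols were found for 98.5% of 27197 identifiers, and positions and exon lengths are from GENCODE M21 on GRCm38. Counts were scaled by TMM and tested with the quasi-likelihood test of edgeR 4.0.16 (R 4.3.3) after its filter on low counts (minimum count 10), with Benjamini-Hochberg adjustment over all genes tested. BNC lines were compared with NC lines in a fit on the 6 lines, and tumors with the mean of both line groups in a fit on the 15 libraries. Genes with an adjusted p under 0.01 and more than 2-fold were called, and a threshold of 0.05 is given beside it. SE is the log2 fold change divided by the square root of F. Scripts were tested on simulated data. Alternatives were DESeq2 1.42.0, other scalings and filters, a replicate block, the number that starts the library names, summed close pairs, other reference lines, and leaving out libraries.

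The members, gene lists, and markers were chosen with earlier results of these data known. Named were all members, Yap1, Wwtr1, and from each list the 2 genes with the smallest p in each comparison; for each member with a tumor median of at least 10 CPM, the most correlated gene was named. Igfbp3, Amotl1, and other genes that a count of few calls covers, and Gas6 in the tumors, were named after their values were seen. Promoter windows came from RefSeq (GRCm38.p6), and Tead1, Tead4, and Ccn2 had no entry.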

Additional observations from a re-analysis of the deposited data

Results flagged for a closer look

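In 20 values checked over the 9 tumors (the members, Yap1, Wwtr1, and the summed markers), 5 had 1 tumor apart from the other 8 by Dixon's criterion (at the 95% level for 9 samples). Chance gives this in about 1 of 20 values that are normally distributed. The criterion was applied to CPM without a log transform, and skewed values can pass it more often. No excess over chance is therefore read from the 5. Ccn2 was at 900 CPM in B27 and at 142 to 501 CPM in the other tumors. Ankrd1 was at 778 CPM in B1 and at 22.2 to 379 CPM in the others; with library size alone, B1 was at 332 CPM beside B19 at 325 CPM and did not stand apart. The summed mesothelial markers were at 4516 CPM in B14 against 793 to 2642 CPM (4908 against 473 to 2798 CPM with library size alone, no longer apart), the lung epithelium markers at 45565 CPM in B2 against 2.66 to 97.1 CPM, and the adipocyte markers at 2730 CPM in B45 against 6.83 to 390 CPM. B2 was also the tumor with the lowest Tead1 and the lowest Ankrd1.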

How the results depend on the processing

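In the lines, 0 members were called; DESeq2 called 1, and leaving out 1 line at a time gave 0 to 3, with 3 without JB87. The replicate block, with the numbers in the line labels of a supplementary table, called 0 members and 0 genes (2146 at an unadjusted p under 0.05); deviations of lines with the same number correlated at 0.12, -0.08, and 0.10, so the numbers were not taken to pair the lines. Ccn2 was the 1 member whose log2 fold change turned below 0: -0.08 with library size alone, -0.58 with the replicate block, -0.52 with the block and JB97 as number 3, -0.34 with the name prefix as a covariate, and -1.49 to 0.63 with 1 line left out. Over all genes, 136 were called, against 2017 by DESeq2, 83 with at least 10 counts in every line, 1 with the name prefix, 0 with the close pairs summed (1508 at an unadjusted p under 0.05; DESeq2 585), 0 to 2574 with 1 line left out (2574 without JB87, 984 without JB97), and 1761 at an adjusted p under 0.05.

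In the tumors, 3 members were called, against 0 without B1, B2, B13, B19, and B45 2 with the close pairs summed (without Tead4), and 2 to 4 with 1 library left out. Log2 fold changes turned above 0 for Tead2 (0.07 without these 5 tumors), Ccn1 (0.09 against the NC lines, 0.12 with at least 10 counts in every library, 0.03 without B1 and B13, 0.40 without the 5 tumors, -0.44 to 0.07 with 1 library left out), Ccn2 (0.07 with at least 10 counts, 0.06 without the 5 tumors, -0.43 to 0.62 with 1 library left out), and Ankrd1 (0.34 against the NC lines, 0.18 with at least 10 counts, 0.01 with DESeq2, -0.55 to 0.32 with 1 library left out); none of these was called. Over all genes, 6220 were called, against 2796 with at least 10 counts, 4062 against the NC lines, 3994 without the 5 tumors, and 9600 at an adjusted p under 0.05. The median log2 fold change of all genes, 0.38, was 0.65 with DESeq2, 0.79 without the filter, 0.27 with library size alone, and 0.14 with at least 10 counts. With the length of the longest transcript, the mean per kb was 51.5 (Tead1), 9.43 (Tead2), and 7.16 CPM (Tead3) in the lines and 10.5 CPM (Tead3) in the tumors; with library size alone Tead1 was at 40.1 CPM per kb in the lines. DNA values moved by less than the spread between tumors. The name prefix could not be fitted for the tumors, which share none with the lines. Leaving out B1 and B13, leaving out the 5 tumors, leaving out Gm42418 and Lars2, DESeq2 on the summed pairs, and library size alone for values that stand apart were chosen after seeing the data. The causes of these changes were not tested.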
